A study of Rattus norvegicus with 23 samples.

Results

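The transcriptional response of rat liver to methylenedianiline (MDA) was set against the response to acetaminophen (APAP) as a difference of effects, the MDA effect minus the APAP effect, with each effect taken against the vehicle of the same compound. The comparison used 12 of the 23 array samples of the series, selected by the compound and dose in their titles, in 4 groups of 3 rats. All rats were male Sprague Dawley, typically 6 to 8 weeks old, dosed by oral gavage for 5 days, fasted overnight and necropsied 24 h after the last dose. The MDA group received 100 mg/kg MDA and its control group 35% ethanol at 2 ml/kg, while the APAP group received 1000 mg/kg APAP and its control group corn oil at 2 ml/kg. No group carried a transgene or a deletion, and each array held RNA from the left lateral lobe of 1 liver. The compounds were given at 1 dose each, in different vehicles and in different in-life studies, so dose, vehicle and study cannot be told apart from compound in any difference below.

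MDA is an aromatic amine that injures the bile duct epithelium and is used in rats as a model of biliary toxicity. APAP is mostly conjugated to glucuronide and sulfate, and a part is oxidised by cytochrome P450 enzymes to a reactive quinone imine that is trapped by glutathione. Reactive metabolites can activate NRF2, a transcription factor that drives genes for glutathione synthesis, glutathione conjugation and export, while ATF4 drives genes for amino acid synthesis when protein synthesis is stressed.

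The values were log2 intensities from robust multichip averaging (RMA), so a difference of 1 on this scale is a doubling, and the small number of arrays limited the precision of every comparison. Alb, albumin, the main secreted protein of hepatocytes, measured 15.95 to 15.99 in all 12 samples, at the top of the range of the file (4.65 to 15.99). The lowest correlation between rats of the same group was 0.988 and the highest 0.995, taken over probe sets that are not replicates of one another. In a principal component analysis of the 12 samples the first component, with 45.4% of the variance, placed MDA livers at 43.34 to 46.39 and all others at -20.8 to -9.71. On the second component, with 12%, APAP replicates 1 and 2 lay at -27.89 and -24.75, whereas APAP replicate 3 lay at -5.94, nearer the other groups.

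MDA and APAP effects differed for a broad set of liver genes. Calls required an adjusted p under 0.05 from limma together with a fold difference over 1.5. The difference was called for 1580 of 31042 probe sets (5.09%), with the MDA effect above the APAP effect for 823 (2.65%) and below it for 757 (2.44%). With 1 probe set for each of 14217 genes, 994 genes (6.99%) were called, 555 higher (3.9%) and 439 lower (3.09%). Here and below, higher and lower mean an MDA effect above or below the APAP effect. The shares of 3.9% higher and 3.09% lower over all genes stand beside every count of list members below. The median difference over all genes was -0.03. Without APAP replicate 3 the count was 1392 probe sets, of which 60.4% were higher, compared to 52.1% with all samples, and without ethanol replicate 1 it was 1781, of which 43.4% were higher. Quantile normalization gave 59.3% higher.

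Most of the called differences came with a large MDA effect. Against ethanol, MDA livers had 1296 called genes (9.12%), 696 up-regulated (4.9%) and 600 down-regulated (4.22%), whereas APAP livers had 46 against corn oil (0.324%), 34 up-regulated (0.239%) and 12 down-regulated (0.0844%). Of the 994 genes, 918 had the larger effect in MDA livers and 76 in APAP livers. Among the 555 higher genes, 462 were called up in MDA livers only, 3 were called down in APAP livers only, 1 was called down in both and 89 were called in neither. Among the 439 lower genes, 296 were called down in MDA livers only, 12 up in APAP livers only, 7 up in both, 1 down in MDA and up in APAP livers, and 123 in neither. The APAP count moved with single samples. It was 65 probe sets in all (0.209%), 29 without APAP replicate 1, 31 without APAP replicate 2, 30 without corn oil replicate 1 and 24 without corn oil replicate 2.

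**Figure D1:**
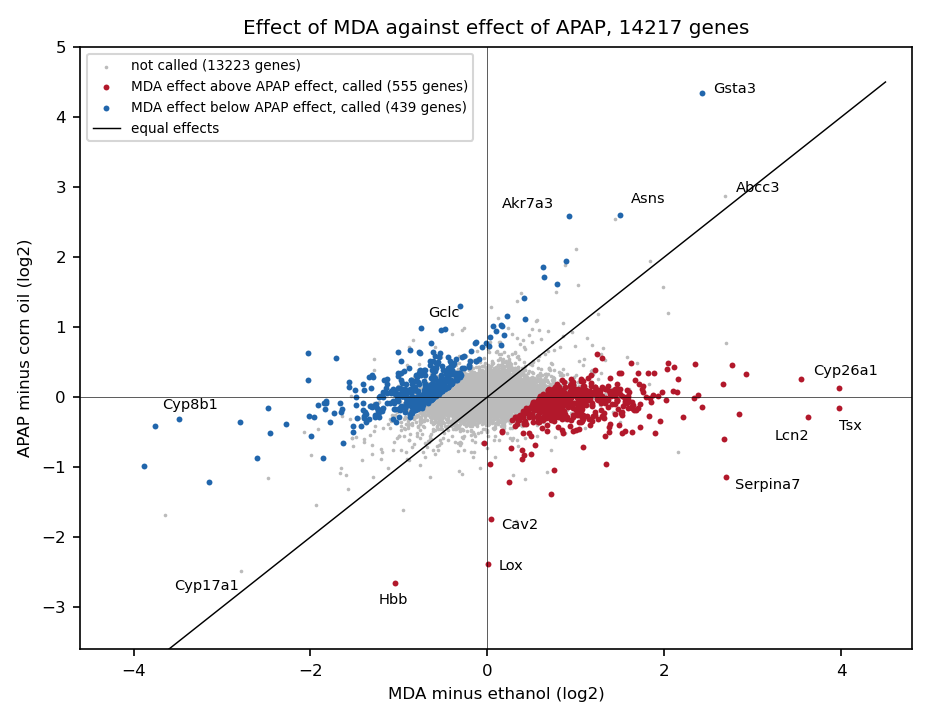
Effect of MDA (x axis, MDA minus ethanol, log2) against effect of APAP (y axis, APAP minus corn oil, log2), with 1 point per gene for 14217 genes. Red and blue points are the 555 and 439 genes with a called difference, which spread mostly along the MDA axis, and the line marks equal effects.

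The genes with the largest APAP effects included enzymes of glutathione conjugation and aldehyde and quinone reduction and exporters of conjugates. Of the 34 genes called up in APAP livers, 13 were called up in MDA livers too. Of the 34, 33 had a difference below 0 and 20 were called lower in it, compared to 7784 of 14217 genes below 0 in all, but the difference subtracts the APAP effect that chose these genes, so its sign was largely fixed by that choice. Akr7a3, an aldo-keto reductase for aldehydes that include an aflatoxin metabolite, measured 14.38, 14.30 and 14.47 in APAP livers and 11.80, 11.79 and 11.82 after corn oil, compared to 13.16, 13.59 and 13.41 in MDA livers and 12.67, 12.33 and 12.39 after ethanol. The 4 groups did not overlap, and APAP livers were the highest. The effects were 2.58 ± 0.0725 (SE) for APAP and 0.92 ± 0.136 for MDA, and the difference of -1.66 ± 0.16 was called by limma (adjusted p = 0.000238).

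Gsta3, a glutathione S-transferase subunit of the alpha class, had the largest APAP effect of the named genes. It measured 12.32, 12.01 and 12.30 in APAP livers, 11.02, 11.94 and 11.74 in MDA livers, 9.32, 9.18 and 8.91 after ethanol and 8.06, 7.45 and 8.07 after corn oil. Every treated liver was above every vehicle liver, and ethanol livers were above corn oil livers. Both effects were called, 4.35 ± 0.173 for APAP and 2.43 ± 0.226 for MDA, and their difference was -1.92 ± 0.317 (limma adjusted p = 0.00443). The treated means differed by -0.65 and the vehicle means by 1.27, so the vehicle gap was the larger part of this difference. Array probes for members of the glutathione S-transferase family can bind transcripts of close relatives.

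The enzymes of glutathione synthesis moved differently under the compounds. Gclc, the catalytic subunit of glutamate-cysteine ligase, measured 12.69, 12.57 and 12.67 in APAP livers and 11.97, 11.63 and 11.46 after corn oil, and it measured 11.36, 11.80 and 11.47 in MDA livers and 12.12, 12.11 and 12 after ethanol. APAP livers lay above and MDA livers below their own vehicles, without overlap. The APAP effect of 0.96 ± 0.126 was called, the MDA effect of -0.53 ± 0.123 had an adjusted p of 0.0255 in limma but fell short of the 1.5-fold limit, and the difference of -1.49 ± 0.186 was called (adjusted p = 0.000818). Gclm, the modifier subunit, was up-regulated by 1.02 ± 0.103 in APAP livers with an MDA effect of 0.06 ± 0.101, and the difference of -0.96 ± 0.146 was called in limma (adjusted p = 0.0029).

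Across the 22 measured NRF2 targets, 6 were lower in the difference and 0 higher, beside 3.09% and 3.9% of all genes. The median was -0.30 compared to -0.03 over all genes. The median effects were 0.45 for MDA and 0.85 for APAP, and the mean of the list over its own vehicle was 0.99, 1.09 and 0.86 in the APAP livers and 0.58, 0.77 and 0.72 in the MDA livers. The lower members were Akr7a3, Gclc, Gclm, Me1 (malic enzyme, a source of NADPH, -0.88), the exporter Abcc4 (-0.83) and Ugdh (UDP-glucose dehydrogenase, -0.68). Abcc4 lost its call without any 1 of 8 samples and Ugdh without any 1 of 6. These were corn oil replicates 2 and 3, APAP 1 and 2, ethanol 2 and 3 and MDA 1 and 2 for Abcc4 (-0.84 to -0.70), and corn oil 1 and 2, APAP 1 and 2, ethanol 1 and MDA 2 for Ugdh (-0.69 to -0.58).

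Some genes of the same defence had MDA and APAP effects that were not called different. Abcc3, Hmox1 and Nqo1 are members of the NRF2 list and Aldh1a1 of the retinoid list. Abcc3, the sinusoidal exporter of glucuronides, measured 11.70, 11.72 and 11.92 in MDA livers and 11.69, 11.66 and 11.60 in APAP livers, compared to 9.31, 8.98 and 8.98 after ethanol and 8.60, 8.91 and 8.82 after corn oil. Treated and vehicle livers did not overlap. Its effects were 2.69 ± 0.118 and 2.87 ± 0.0932, and the 95% interval of the difference was -0.52 to 0.15. Aldh1a1, a retinaldehyde dehydrogenase, rose by 1.25 ± 0.106 after MDA and by 1.18 ± 0.164 after APAP, with an interval of -0.38 to 0.53. Hmox1, heme oxygenase, had effects of 0.96 ± 0.135 and 0.93 ± 0.223, of which only the first was called, and an interval of -0.59 to 0.65. Nqo1, the NAD(P)H quinone reductase, rose by 1.02 ± 0.158 and 1.6 ± 0.0945, and its interval of -1 to -0.15 lay below 0 although the adjusted p was 0.117 in limma.

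Among 21 glutathione S-transferase genes, 7 were lower and 1 was higher, beside 3.09% and 3.9% of all genes, with a median difference of -0.40. The list medians of the separate effects were 0.27 for MDA and 0.26 for APAP, so the median of the differences did not follow from the medians of the effects. Gstp1, the pi class enzyme, measured 13.47, 12.42 and 12.65 in APAP livers and 11.61, 11.74 and 11.83 in MDA livers, with 11, 11.08 and 11.21 after ethanol and 11.04, 10.79 and 11.14 after corn oil. APAP replicate 1 was the highest, and the treated groups did not overlap. Its difference of -1.23 ± 0.293 lost its call without any 1 of 6 samples (corn oil replicates 1 and 2, ethanol 2 and 3, MDA 1 and 2), at -1.25 to -1.13. Gstz1, which also acts as maleylacetoacetate isomerase in tyrosine breakdown, had an MDA effect of -0.92 ± 0.142 and an APAP effect of 0.06 ± 0.0722. Gstm3 was the single higher member, with an MDA effect of 1.59 ± 0.171 and an APAP effect of -0.03 ± 0.0796.

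Part of the ATF4 response was lower in the difference as well. Asns, asparagine synthetase, measured 11.60, 10.93 and 11.74 in APAP livers and 10.78, 11.09 and 10.83 in MDA livers, against 8.59, 8.87 and 9.01 after corn oil and 9.39, 9.70 and 9.11 after ethanol. The treated groups overlapped, and the vehicle gap of 0.58 was larger than the treated gap of -0.52. Its difference of -1.10 ± 0.286 was called with an adjusted p of 0.0402 in limma and was not called without any 1 of 9 samples (-1.19 to -0.94), that is every sample but corn oil replicate 3, APAP replicate 2 and ethanol replicate 3. Trib3, a pseudokinase induced by ATF4, measured 11.87, 11.75 and 11.38 in APAP livers and 10.08, 9.99 and 10.13 in MDA livers, with 9.95, 10.10 and 11.06 after corn oil and 10.01 to 10.62 after ethanol. APAP livers were above all others. Its difference was -1.61 ± 0.351 (limma adjusted p = 0.0182), while neither effect alone was called. For the serine synthesis enzymes Phgdh and Psat1 the differences were -1.10 ± 0.333 and -1.12 ± 0.446 and were not called (limma adjusted p = 0.0739 and 0.183). Of 32 ER stress and ATF4 genes, 4 were lower and 1, Aldh18a1 (0.94), was higher, beside 3.09% and 3.9% of all genes. The median difference was -0.25, and Atf4 (-0.42), Ddit3 (-0.1) and Chac1 (-0.01) were not called.

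**Figure D2:**
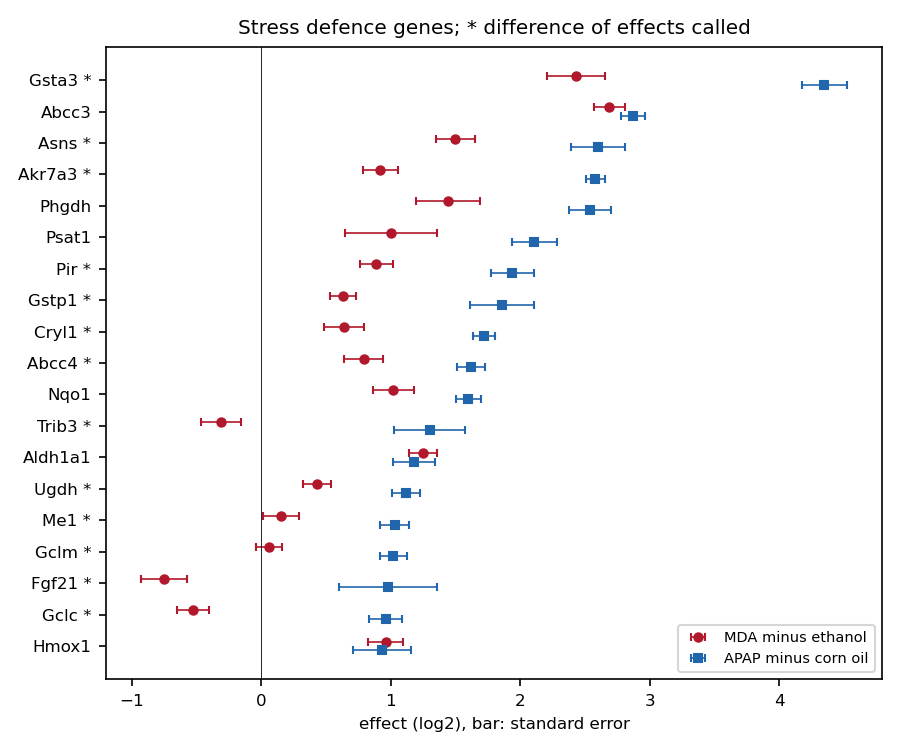
Effects of MDA (circles) and APAP (squares) on 19 stress defence genes as log2 differences from the own vehicle, with standard errors as bars. APAP effects lay to the right of MDA effects for genes such as Gsta3, Akr7a3 and Gclc and beside them for Abcc3, Aldh1a1 and Hmox1, and an asterisk marks a called difference.

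Conjugation to glucuronide and sulfate was lower in 4 of 22 genes and higher in 0, beside 3.09% and 3.9% of all genes. The median was -0.24. Ugp2, which makes the UDP-glucose that feeds glucuronidation and glycogen, measured 13.91, 13.85 and 13.70 in APAP livers and 13.13, 13.01 and 13.31 after corn oil, and 12.49, 12.15 and 12.64 in MDA livers and 13.52, 13.37 and 13.01 after ethanol. APAP livers lay above and MDA livers below every vehicle liver. The MDA effect of -0.87 ± 0.164 was called, the APAP effect of 0.67 ± 0.0993 was not, and the difference was -1.54 ± 0.207 (limma adjusted p = 0.00128). Sult1c2, a sulfotransferase of phenols, measured 8.20, 8.66 and 8.59 in MDA livers and 9.61 to 11.50 elsewhere, with a difference of -2.32 ± 0.423.

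Promoter sequence was read for these genes to show what their start sites share. Sequences are from RefSeq on build GRCr8, cover the 250 bases before the annotated start and were searched on both strands. The core of the antioxidant response element bound by NRF2, TGACNNNGC, was in 10.1% of all 33469 promoters, in 7 of the 30 genes called up in APAP livers that had a promoter sequence and in 6 of 19 NRF2 targets. Genes with several listed starts count once if any start matched, so these shares are not on the same footing as that over all promoters. The windows below show 6 genes of the APAP response, with the match in capitals.

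Gsta3 (chr9:31154948-31154988, plus strand): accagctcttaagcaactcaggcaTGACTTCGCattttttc
Gstp1 (chr1:210769734-210769790, minus strand): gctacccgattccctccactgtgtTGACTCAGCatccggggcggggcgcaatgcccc
Gclm (chr2:213031939-213031995, plus strand): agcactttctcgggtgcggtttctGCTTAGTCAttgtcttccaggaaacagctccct
Me1 (chr8:96540379-96540435, minus strand): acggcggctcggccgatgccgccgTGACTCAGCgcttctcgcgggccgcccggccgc
Ugdh (chr14:43202287-43202343, plus strand): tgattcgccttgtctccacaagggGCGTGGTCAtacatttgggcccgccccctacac
Pir (chrX:33851050-33851187, minus strand): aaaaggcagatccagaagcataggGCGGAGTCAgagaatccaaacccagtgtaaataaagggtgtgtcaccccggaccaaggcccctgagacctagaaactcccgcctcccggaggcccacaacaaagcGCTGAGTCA

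Gstp1 and Me1 held the same letters, TGACTCAGC, and Pir, an iron-binding nuclear protein, held 2 matches. In Gclm, Ugdh and Pir the capitals are the motif on the other strand. The amino acid response element core TGATGNAA, in 3.4% of promoters, was in 5 of 27 genes of the ER stress and ATF4 list, Trib3 among them. All such matches describe letters only, and binding was not measured. The motifs shown were chosen from 16 searched after the matches were seen.

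Trib3 (chr3:161275534-161275578, minus strand): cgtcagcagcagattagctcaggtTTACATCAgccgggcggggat

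The 12 largest higher genes were Tsx, Lcn2, Serpina7 (thyroxine-binding globulin), Cyp26a1, Ltb, Cyp1a1, Ccn2, Gbp2, Rnd1, Pla1a (a phospholipase), Tcim and Cxcl9, with differences of 4.13 to 2.42. All 12 were called up in MDA livers and none was called in APAP livers. Tsx, a gene named for its expression in testis, measured 11.52, 11.99 and 11.59 in MDA livers and 7.48 to 7.99 in the other 9 samples. The gap was without overlap, and the difference of 4.13 ± 0.201 corresponded to 17.5-fold (limma adjusted p = 1.92e-06).

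Retinoid genes were altered in both directions. Cyp26a1, which hydroxylates retinoic acid, measured 11.20, 12.16 and 11.99 in MDA livers, 7.87, 8.07 and 7.51 after ethanol, 7.51, 7.71 and 7.88 in APAP livers and 7.77, 7.24 and 7.71 after corn oil. Only MDA livers stood above the rest. The difference was 3.84 ± 0.326, or 14.3-fold (limma adjusted p = 0.000117), and that of its relative Cyp26b1 was 2.35 ± 0.371, although its other probe set gave 1. Cyp2c22, a P450 reported to act on retinoids, was higher by 1.84 ± 0.187. Lrat, which esterifies retinol for storage in stellate cells, had an MDA effect of -1.83 ± 0.255 and an APAP effect of -0.09 ± 0.138. Rbp4, the carrier of retinol in plasma, fell to 14.90, 14.93 and 14.75 in MDA livers and lay at 15.69 to 15.73 in the other samples.

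Of 21 retinoid genes, 2 were higher and 2 lower, beside 3.9% and 3.09% of all genes, and the median difference was -0.13. An exact form of the repeat bound by retinoic acid receptors, AGTTCA followed by AGTTCA after a gap of 5 bases, was in 3 of 33469 promoters, or 0.00896%. Cyp26a1 was the only one of 19 retinoid genes with a promoter sequence that held this exact form. The count does not cover other spellings of the repeat, so it does not show which other retinoid genes hold one. The window shows the pair on the other strand, in capitals.

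Cyp26a1 (chr1:244883706-244883770, plus strand): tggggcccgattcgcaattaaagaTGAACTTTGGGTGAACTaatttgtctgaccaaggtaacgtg

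Cyp1a1, the marker enzyme of aryl hydrocarbon receptor activation, measured 13.10, 14.31 and 13.99 in MDA livers and 10.56, 9.90 and 10.32 after ethanol, against 9.32, 9.44 and 9.89 in APAP livers and 9.26, 9.33 and 9.27 after corn oil. MDA livers were far above all others, and all ethanol livers lay above all corn oil livers. The difference was 3.28 ± 0.368 (limma adjusted p = 0.000556). Of 8 aryl hydrocarbon receptor targets, Cyp1a1 and Cyp1a2 were higher and 0 were lower, with a median of 0.09. The other members, Ahrr, Aldh3a1, Cyp1b1, Nfe2l2, Nqo1 and Tiparp, were not called. Cyp1a2, which oxidises caffeine and aromatic amines, measured 12.31, 12.09 and 12.23 in APAP livers and 13.20, 13.04 and 12.67 after corn oil, and 13.72, 14.50 and 14.36 in MDA livers and 14.05, 13.63 and 13.74 after ethanol. Neither of its effects was called, and its difference of 1.15 ± 0.27 was not called without corn oil replicates 1 or 2, APAP 2, ethanol 2 or 3, or MDA 2 or 3 (1 to 1.12).

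**Figure D3:**
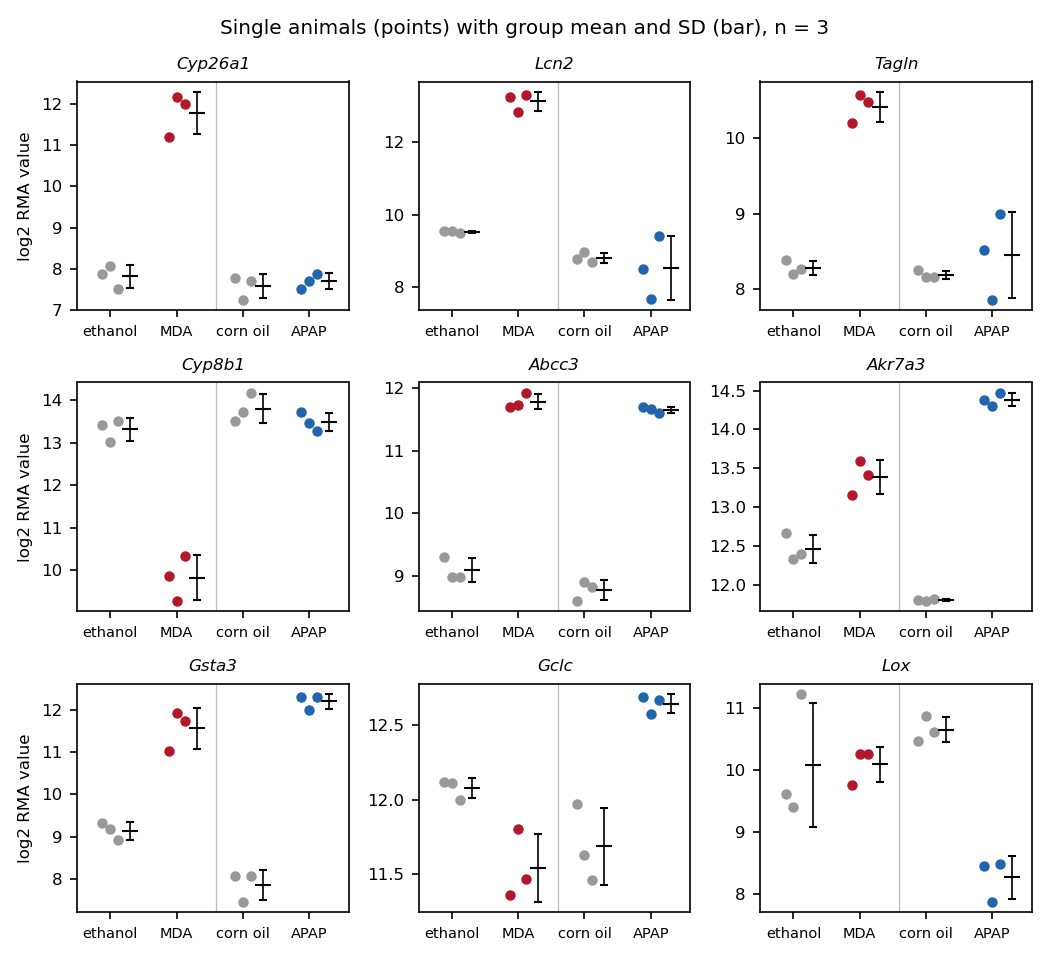
Log2 RMA values of 9 genes in single animals (points) of the ethanol, MDA, corn oil and APAP groups, with the mean and SD of each group of 3 beside them. The y axes do not start at 0 and differ between panels. Cyp26a1, Lcn2 and Tagln were high in MDA livers alone, Akr7a3 and Gclc were highest in APAP livers, and Lox was lowest in APAP livers.

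Some inflammatory transcripts were higher in MDA livers. Lcn2, a siderophore-binding acute phase protein, measured 13.25, 12.84 and 13.33 in MDA livers, 9.54, 9.54 and 9.49 after ethanol, 8.48, 7.65 and 9.42 in APAP livers and 8.76, 8.95 and 8.69 after corn oil. MDA livers did not overlap with any other group, and APAP livers spread around corn oil livers. The difference was 3.90 ± 0.441, or 14.9-fold (limma adjusted p = 0.000556). Of 24 acute phase genes 6 were higher and 2 lower, beside 3.9% and 3.09% of all genes, and the median difference was 0.05. The lower members were Cd14 (-0.62) and Hamp, given below. Members without a called difference included A2m (0.94), Hp (0.09), Fga (0.05), C3 (0.02), Fgb (-0.02), Serpina1 (-0.04) and Crp (-0.25). Lbp, which binds bacterial lipopolysaccharide, was higher by 1.64 ± 0.16, Cp, the copper-carrying ferroxidase, by 1.28 ± 0.221 and Orm1, an acid glycoprotein, by 1.14 ± 0.183. The 3 probe sets of Cp ranged from -0.13 to 1.28 in their difference. Hamp, the iron hormone hepcidin, was lower (-1.39 ± 0.324) although neither of its effects was called. It lost the call without APAP replicates 1 or 2, corn oil replicates 2 or 3 or ethanol replicate 3 (-1.37 to -1.29).

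Some chemokines were higher too. Cxcl1, a neutrophil attractant, measured 11.81, 11.30 and 11.23 in MDA livers, 8.49 to 8.95 after ethanol, 9.15, 9.07 and 9.69 in APAP livers and 8.71 to 8.96 after corn oil. All MDA livers were above all others, and the difference was 2.30 ± 0.262 (limma adjusted p = 0.000556). Ccl2, which recruits monocytes, was higher by 1.68 ± 0.171. Of 24 chemokine and interleukin 1 genes, 4 were higher and 0 lower, beside 3.9% and 3.09% of all genes. The median was 0.28, and 20 had a difference above 0. Among the other list members Cxcl2, Cxcl3 and Cxcl6 had differences of -0.01, 0 and -0.14, which were not called. Ltb, a lymphotoxin subunit of the tumour necrosis factor family, measured 12.94, 11.37 and 11.19 in MDA livers and 8.25 to 9.76 elsewhere, with MDA replicate 1 highest.

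Part of the interferon-inducible genes followed the same direction. Gbp2, a guanylate-binding GTPase of host defence, measured 12.36, 11.98 and 11.73 in MDA livers, 9.62, 9.07 and 8.63 after ethanol, 9.36, 9.18 and 9.38 in APAP livers and 8.61, 8.91 and 9.41 after corn oil. Only MDA livers were apart, and the difference was 2.59 ± 0.344 (limma adjusted p = 0.00123). Cxcl9 and Cxcl10, T cell attractants, were higher by 2.42 ± 0.437 and 1.79 ± 0.377. Tap2, a peptide transporter of antigen presentation, and Psmb10, a subunit of the immunoproteasome, were higher by 1.48 ± 0.191 and 1.39 ± 0.166. Of 26 genes, 8 were higher and 0 lower, beside 3.9% and 3.09% of all genes. The median was 0.30, and 7 had a difference below 0. Isg15 (-0.21), Usp18 (-0.49), Oas1a (-0.46), Ifit2 (-0.51), Irf7 (-0.06), Mx1 (0.05) and Rsad2 (0.13) were not called. The mean of the list over the ethanol mean was 0.85, 0.38 and 0.82 in the MDA livers and -0.01 to 0.17 over corn oil in the APAP livers, so MDA replicate 2 was the lowest of its group.

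The core of the interferon-stimulated response element, GAAA followed by GAAA after a gap of 2 bases, was in 3.41% of all promoters and in 12 of the 22 genes of this list with a promoter sequence. Of these 12, B2m, Ifit3, Igtp, Irf7, Oas1a and Rsad2 had no called difference, so a match did not go with a call throughout. The search again covered both strands. The windows of Gbp2 and Psmb10 are shown because their differences were called and Psmb10 held 2 matches. Capitals mark the motif, on the other strand in Gbp2.

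Gbp2 (chr2:234005672-234005726, plus strand): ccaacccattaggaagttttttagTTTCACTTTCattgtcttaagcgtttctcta
Psmb10 (chr19:50743293-50743389, minus strand): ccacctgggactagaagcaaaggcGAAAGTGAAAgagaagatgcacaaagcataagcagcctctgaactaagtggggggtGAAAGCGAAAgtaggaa

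Markers of cells other than hepatocytes were higher for several cell types. In whole liver RNA more or fewer cells of a type and more or less RNA per cell cannot be told apart. Of 23 monocyte and macrophage markers 6 were higher and 1 lower, beside 3.9% and 3.09% of all genes. The median of the 23 was 0.81, the largest of the 34 gene lists. Their mean level was 11.44 to 11.59 in MDA livers, 10.52 to 10.76 after ethanol, 10.30 to 10.97 in APAP livers and 10.22 to 10.83 after corn oil. MDA livers lay above all others, and 17 of the 23 markers were called up against ethanol. Lyz2, lysozyme, measured 12.94, 12.91 and 12.79 in MDA livers, 11.99 to 12.07 after ethanol, 11.24, 11.16 and 11.74 in APAP livers and 11.80 to 12.01 after corn oil, so MDA livers were the highest and APAP livers the lowest. Its difference was 1.36 ± 0.181 (limma adjusted p = 0.00121). Cd74, the invariant chain of antigen presentation, was higher by 1.57 ± 0.198. The pan-macrophage markers Cd68, Csf1r and Cd163 were called up in MDA livers, with effects of 0.97 ± 0.152, 0.75 ± 0.135 and 0.99 ± 0.127, and their differences were not called. The lower member was the monocyte marker Cd14 (-0.62, limma adjusted p = 0.049). Itgam (0.13), Clec4f (0.12), Trem2 (-0.01) and Cx3cr1 (-0.04) were not called.

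Macrophage markers varied within the APAP and corn oil groups. The mean of the list over corn oil was 0.07, -0.25 and 0.42 in APAP livers, with APAP replicate 3 the highest. Cd163, a haemoglobin scavenger receptor of resident macrophages, measured 9.69, 9.24 and 10.46 in APAP livers and 9.05, 10.05 and 10.19 after corn oil, so these groups overlapped. Of 11 neutrophil markers 0 were called by limma or by the methods' t-test (equal variances), beside 6.99% of all genes called by limma. In so short a list this 0 is near that share. The median difference was 0.32, and 3 of the 11 had an unadjusted limma p under 0.05, as did 3466 of all 14217 genes. S100a8, a calcium-binding protein abundant in neutrophils, lay at 5.06 to 5.80 in all 12 samples, near the floor of the array. Its relative S100a9 measured 9.02 to 9.03 in MDA livers and 8.15 to 8.83 elsewhere, with an adjusted p of 0.086 in limma. Among 19 lymphocyte markers 3 were higher, beside 3.9% of all genes. The median of the 19 was 0.35, and the mean level was 9.11 to 9.33 in MDA livers and 8.72 to 8.94 in the other groups.

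Part of the matrix and myofibroblast genes were higher in the difference. Of 39 stellate cell, fibroblast and matrix genes, 12 were higher and 2 lower, beside 3.9% and 3.09% of all genes, with a median of 0.48. The 2 lower members were Igfbp3 (-1.93) and Lrat (-1.75). Lox, counted as higher, had an MDA effect of 0.01 and an APAP effect of -2.38. The mean level of the list was 10.38 to 10.51 in MDA livers, 9.93 to 10.18 after ethanol, 9.71 to 9.93 in APAP livers and 9.91 to 10.11 after corn oil. Tagln, an actin-binding protein of contractile cells, measured 10.20, 10.58 and 10.48 in MDA livers, 8.38, 8.19 and 8.26 after ethanol, 8.52, 7.85 and 8.99 in APAP livers and 8.25, 8.15 and 8.16 after corn oil. MDA livers were apart, and the difference was 1.88 ± 0.297 (limma adjusted p = 0.00336). Acta2, the smooth muscle actin of activated stellate cells, was higher by 1.29 ± 0.132, Timp1, an inhibitor of matrix proteases, by 1.79 ± 0.194 and Postn, a matrix protein, by 1.92 ± 0.298. Ccn2, connective tissue growth factor, which is counted with the immediate early genes and not in this list, was higher by 3.08 ± 0.372.

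Collagen type I had effects of opposite sign, of which the MDA effect was called. Col1a1, a chain of type I collagen, measured 12.01, 12.23 and 12.04 in MDA livers, 10.62, 10.89 and 10.11 after ethanol, 9.34, 9.44 and 10.10 in APAP livers and 10.33, 10.42 and 9.56 after corn oil. MDA livers did not overlap with ethanol livers, and APAP and corn oil livers overlapped. The effects were 1.55 ± 0.182 and -0.48 ± 0.264 and the difference was 2.03 ± 0.358 (limma adjusted p = 0.00627). Serpinh1, the collagen chaperone, had effects of 1.33 ± 0.185 and -0.56 ± 0.0939. Its probe sets ranged from 0.16 to 1.89 in their difference.

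Ductular and epithelial genes were higher for part of their list. Of 17 cholangiocyte and ductular markers, 4 were higher and 0 lower, beside 3.9% and 3.09% of all genes. The median was 0.29, with 13 above 0 and 4 below. The mean level was 9.79 to 10.05 in MDA livers and 9.29 to 9.44 in the other groups. Epcam, an adhesion molecule of bile duct epithelium, measured 11.70, 11.76 and 11.26 in MDA livers and 9.95 to 10.56 elsewhere. The groups were apart, and the difference was 1.16 ± 0.217. Krt8 and Krt18, the keratins that hepatocytes also express, were higher by 1.54 ± 0.146 and 1.09 ± 0.201. Sox4, a transcription factor of ductal cells, was higher by 1.89 ± 0.292, and its 7 probe sets ranged from -0.28 to 1.89. The mean of these probe sets gave 0.35 and was not called. Krt19, the keratin that defines bile ducts in adult liver, measured 8.14, 8.70 and 8.48 in MDA livers and 7.53 to 8.12 elsewhere, and its difference of 0.66 ± 0.221 was not called (limma adjusted p = 0.109). Cd24 (0.86), Krt7 (0.26), Muc1 (0.06), Slc5a1 (-0.01), Aqp1 (-0.06), Spp1 (-0.07) and Onecut2 (-0.59) were not called either.

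**Figure D4:**
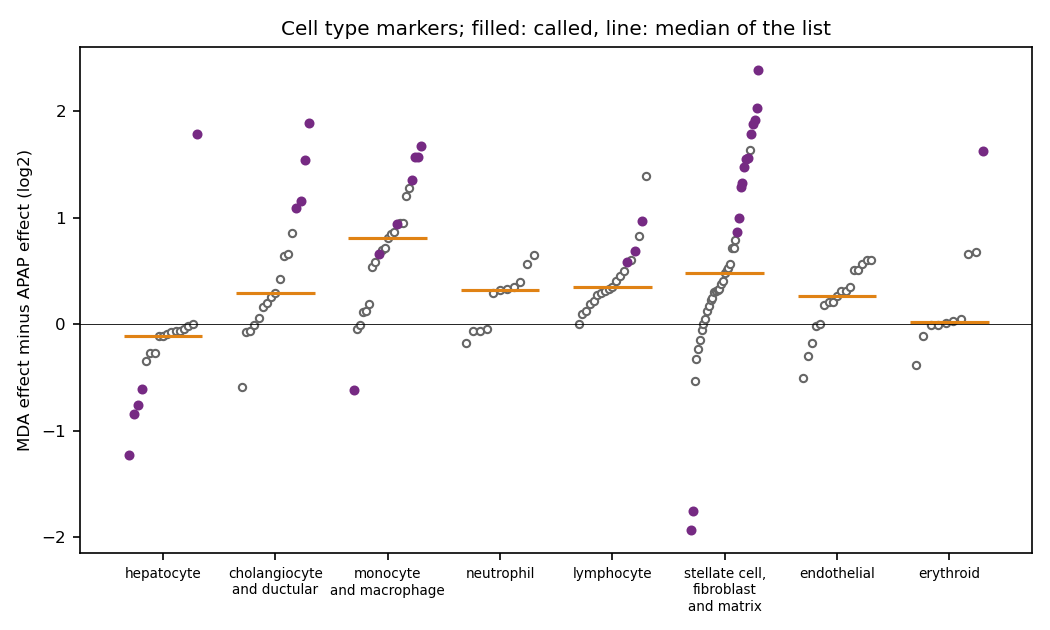
MDA effect minus APAP effect (y axis, log2) for each measured marker of 8 cell types, ordered by value within a type, with filled points for called differences and a line at the median. Monocyte and macrophage markers had the highest median (0.81) and hepatocyte markers the lowest (-0.11).

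Cell cycle genes were nearly all on the higher side. Of 43 genes, 11 were higher and 0 lower, beside 3.9% and 3.09% of all genes, 42 had a difference above 0, and the median was 0.55. Their mean level was 8.97 to 9.51 in MDA livers, 8.71 to 8.81 after ethanol, 8.43 to 8.49 in APAP livers and 8.48 to 8.55 after corn oil, so the ethanol livers lay above the corn oil livers. The mean of the list over ethanol was 0.20 in MDA replicate 1 and 0.74 and 0.72 in MDA replicates 2 and 3. Mcm6, a subunit of the replicative helicase, measured 8.37, 8.57 and 8.22 in MDA livers, 7.66, 7.27 and 6.66 after ethanol, 6.19, 6.48 and 6.59 in APAP livers and 6.89, 6.35 and 6.83 after corn oil. MDA livers were the highest, and the difference was 1.46 ± 0.311 (limma adjusted p = 0.0166). Mki67, the proliferation antigen, measured 7.81, 9.41 and 9.22 in MDA livers and 6.38 to 7.32 elsewhere. Its difference of 1.92 ± 0.458 lost its call without any 1 of 8 samples, namely any corn oil replicate, APAP 1 or 2, ethanol 3 or MDA 2 or 3 (1.62 to 1.95). Top2a, a topoisomerase of dividing cells, and Cdk1, the mitotic kinase, had differences of 0.43 ± 0.168 and 0.69 ± 0.347, which were not called.

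Of 22 immediate early genes 8 were higher and 0 lower, beside 3.9% of all genes higher, and the median was 0.16. Fos, Fosb and Fosl1 had differences of -0.1, 0.14 and -0.11, which were not called, and 8 of the 22 lay below 0. Egr1, a zinc finger factor induced within minutes of a stimulus, measured 11.38, 11.30 and 10.89 in MDA livers, 10.19, 9.57 and 9.23 after ethanol, 9.33, 10.25 and 10.54 in APAP livers and 10.85, 10.15 and 10.65 after corn oil. MDA livers were the highest and ethanol livers lay mostly below corn oil livers. The difference was 2.04 ± 0.433 (limma adjusted p = 0.0164). Klf6, a factor induced by liver injury, was higher by 1.77 ± 0.221 and Junb, a part of the AP-1 complex, by 0.98 ± 0.148. Of 18 p53 targets 4 were higher, with a median of 0.02. Fas, the death receptor, had effects of 1.08 ± 0.183 and -0.71 ± 0.163, of which the first was called, and Ccng1, a cyclin induced by DNA damage, had effects of 0.76 ± 0.143 and -0.28 ± 0.136. The 3 probe sets of Fas ranged from 0.06 to 1.79.

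The 12 largest lower genes were Dhrs7l1, Cyp8b1, Car3, Adh7, Vipr1 (a peptide hormone receptor), Sult1c2, Nat8, Rab40b, Stac3, Igfbp3, Gsta3 and Hacl1, with differences of -3.34 to -1.90, and all but Gsta3 were called down in MDA livers. The 2 probe sets of Vipr1 gave -2.45 and -0.50. Cyp8b1, the sterol 12-alpha-hydroxylase that makes cholic acid, measured 9.86, 9.27 and 10.34 in MDA livers, 13.41, 13.01 and 13.52 after ethanol, 13.71, 13.45 and 13.28 in APAP livers and 13.51, 13.71 and 14.17 after corn oil. MDA livers were the only ones below 13. The difference was -3.18 ± 0.346, or 9.05-fold (limma adjusted p = 0.000529). Rab40b, a small GTPase whose other probe set gave -0.41, lost its call without any 1 of 6 samples (APAP replicates 1 and 2, ethanol 2 and 3, MDA 1 and 2), at -2.35 to -2.

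Bile acid genes were lower in 4 of 18, beside 3.09% of all genes, with a median of -0.35. Amacr, a racemase of bile acid and branched fatty acid oxidation, was lower by -1.18 ± 0.245. Cyp7a1, the rate-limiting enzyme of the classical pathway, ranged from 9.10 to 11.84 within the ethanol group alone, and the interval of its difference, -0.44 to 3.37, held both signs. Among 20 hepatocyte transporters 6 were lower and 0 higher, beside 3.09% and 3.9% of all genes. Of the 20, 4 were lower under quantile normalization and 0 in the methods' t-test after adjustment. Slc10a1, which takes up bile acids from blood, measured 12.75, 13.19 and 12.96 in MDA livers and 13.38 to 13.91 elsewhere. MDA livers lay below all others, and the difference was -0.93 ± 0.194 (limma adjusted p = 0.015). Abcg5, a sterol exporter at the canalicular membrane, was lower by -1.32 ± 0.246 and the organic anion carrier Slc22a8 by -1.60 ± 0.284, with -3.26 in its other probe set.

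Fatty acid oxidation and PPAR alpha targets had the lowest median of the lists, -0.48. All 30 members had a difference below 0, 11 were called lower and 0 higher. The MDA median was -0.82 with 18 members called down, and the APAP median was -0.21. The mean of the list over its own vehicle was -0.98, -0.92 and -0.84 in MDA livers and -0.24, -0.29 and -0.22 in APAP livers. Fabp1, the fatty acid binding protein of hepatocytes, measured 13.90, 13.92 and 13.98 in MDA livers and 15.37 to 15.65 in the other 9 samples. The gap was large compared to the spread, and the difference was -1.58 ± 0.107 (limma adjusted p = 2.26e-05). Cyp4a1, a fatty acid hydroxylase and PPAR alpha target, was lower by -1.17 ± 0.154, Pex11a, a peroxisome division factor, by -1.42 ± 0.253, Angptl4, an inhibitor of lipoprotein lipase, by -1.68 ± 0.267 and Hacl1, which shortens branched fatty acids, by -1.90 ± 0.23. The 2 probe sets of Pex11a gave -1.42 and -0.48.

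Amino acid breakdown was lower for 13 of 42 genes, beside 3.09% of all genes, with a median of -0.46. Hal, which starts histidine breakdown, measured 10.30, 9.93 and 10.83 in MDA livers, 12.07, 12.10 and 12.37 after ethanol, 12.52, 12.12 and 12.29 in APAP livers and 12.24, 12.28 and 12.59 after corn oil. MDA livers were apart, and the difference was -1.77 ± 0.272 (limma adjusted p = 0.00297). Csad, a step of taurine synthesis, was lower by -1.32 ± 0.257 and Gpt, alanine aminotransferase, by -1.14 ± 0.222. Cps1, the first enzyme of the urea cycle, had a difference of -0.11 ± 0.128 that was not called. Oat, ornithine aminotransferase, fell by 1.67 on the log2 scale after MDA and fell by 1.08 after APAP, and its difference was not called (limma adjusted p = 0.199).

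Of 17 hepatocyte markers, 4 were lower and 1 higher, with a median of -0.11, and their mean level was 14.54 to 14.69 in MDA livers and 14.86 to 14.98 in the other groups. Cyp2e1, a P450 that oxidises ethanol and APAP, measured 14.16, 14.16 and 14.20 in MDA livers, 15.59, 14.90 and 15.70 after ethanol, 15.72, 15.68 and 15.72 in APAP livers and 15.72, 15.70 and 15.69 after corn oil. MDA livers were the lowest, and the difference was -1.23 ± 0.22 (limma adjusted p = 0.00673). The 6 APAP and corn oil livers lay within 15.68 to 15.72, near the top of the range of the file. These values may be compressed and the sizes of the effects understated, as for Rbp4 and Fabp1. The same may hold for Orm1, Cp and Cyp2c22, which reached 15.8, 15.63 and 15.7 in MDA livers. Compression was not tested. Hnf4a, the nuclear receptor that maintains hepatocyte identity, was lower by -0.76 ± 0.144, with its 3 probe sets between -0.76 and -0.28. Cebpd, an acute phase transcription factor, was higher by 1 ± 0.116, and its 3 probe sets ranged from -0.28 to 1. Of 23 liver genes with a sex bias 5 were lower (3 called under quantile normalization). The male-predominant Car3, a carbonic anhydrase, measured 11.17, 9.68 and 10.31 in MDA livers, 14.03 to 14.60 after ethanol, 12.88, 11.66 and 12.44 in APAP livers and 13.78, 13.81 and 12.36 after corn oil, with a difference of -2.89 ± 0.614.

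**Figure D5:**
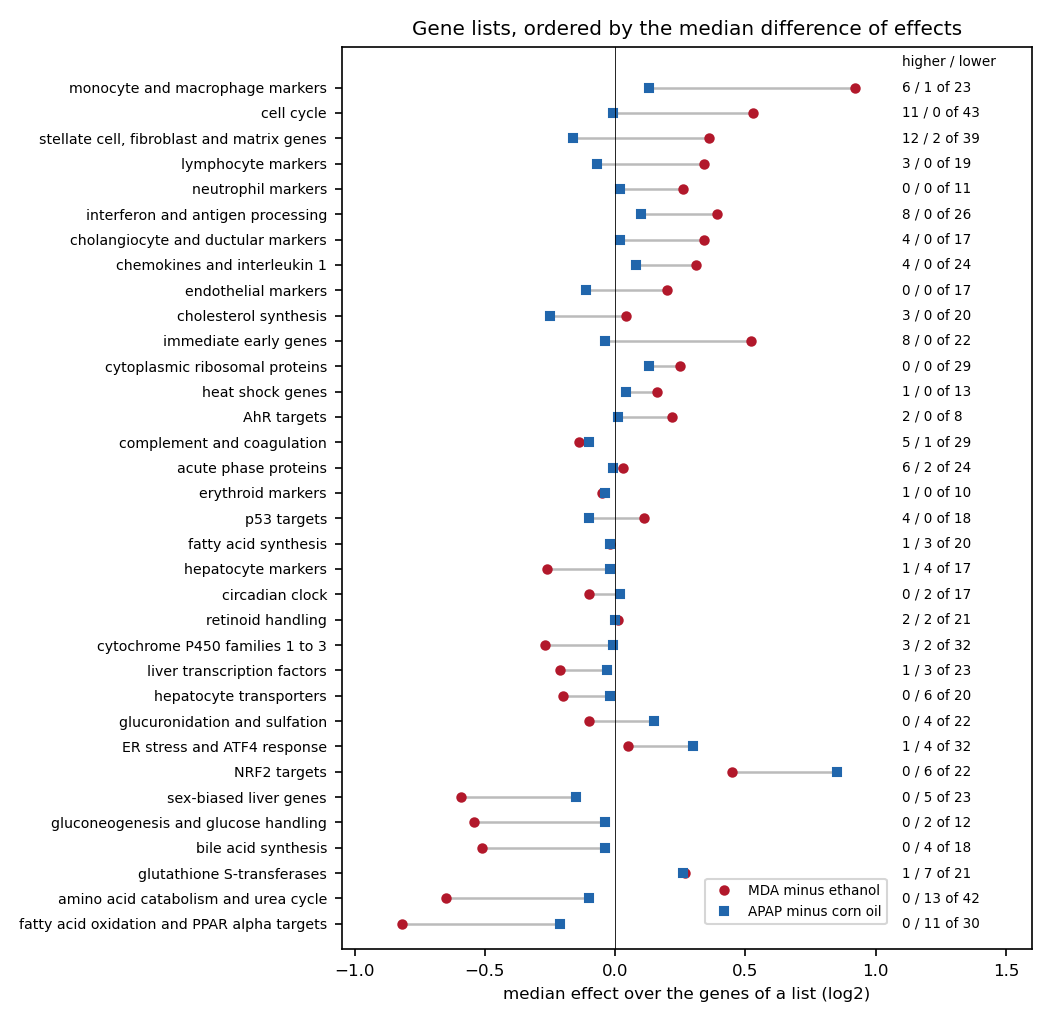
Median effect of MDA (circles) and APAP (squares) over the genes of 34 lists, in log2 units, ordered by the median difference of effects, with the counts of members called higher and lower at the right. The top rows are macrophage, cell cycle and matrix genes and the bottom rows fatty acid oxidation and amino acid breakdown, where MDA medians lay farther from 0 than APAP medians.

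Counts in the remaining lists stand beside the 6.99% of all genes called. Among 32 cytochrome P450 genes of families 1 to 3, 3 were higher and 2 lower with a median of -0.14, and among 23 liver transcription factors 1 was higher and 3 lower with a median of -0.16, which became 2 called in all under quantile normalization. Of 29 complement and coagulation genes, 5 were higher and 1 lower, with a median of 0.06, and C9, a pore-forming complement component, was higher by 0.99 ± 0.163. Of 12 genes of gluconeogenesis and glucose handling, 2 were lower with a median of -0.33, and Pklr, the liver pyruvate kinase, was lower by -1.11 ± 0.215. Of 17 clock genes, 2 were lower with a median of -0.12. Hlf, a clock-controlled transcription factor, was lower by -1.41 ± 0.261, although its 4 probe sets ranged from -2.53 to -0.03. The 13 heat shock genes had 1 higher member, Serpinh1, and a median of 0.11, the 20 fatty acid synthesis genes 1 higher and 3 lower and a median of -0.09, and the 29 ribosomal protein genes 0 called by limma or the methods' t-test, 4 with an unadjusted limma p under 0.05 (14 under quantile normalization) and a median of 0.13 (0.23 under quantile normalization).

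A small set of differences came from falls in APAP livers. Lox, the enzyme that cross-links collagen, measured 8.45, 7.87 and 8.48 in APAP livers and 10.46, 10.86 and 10.61 after corn oil, compared to 9.76, 10.25 and 10.25 in MDA livers and 9.61, 9.40 and 11.22 after ethanol. APAP livers were below all others, and ethanol replicate 3 was the highest sample. The effects were -2.38 ± 0.174 for APAP and 0.01 ± 0.423 for MDA, and the difference was 2.39 ± 0.523 (limma adjusted p = 0.0186). Cav2, a caveola protein of endothelium and other cells, measured 7.91, 7.72 and 8.37 in APAP livers and 9.41 to 10.11 in the other 9 samples. Its difference was 1.78 ± 0.258 (limma adjusted p = 0.00207), although its 4 probe sets ranged from 0.46 to 1.78. Of 17 endothelial markers 0 were called in the difference by limma or by the methods' t-test, beside 6.99% of all genes called by limma. In so short a list this 0 is near that share. An unadjusted limma p under 0.05 was found for 4 of the 17 and for 3466 of all 14217 genes. The mean level of the list was 9.62 to 10.12 in APAP livers and 9.73 to 10.11 after corn oil.

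Hbb, the beta chain of haemoglobin carried by red cells, was called down under both compounds. It measured 10.11, 9.89 and 10.88 in APAP livers, 13.43, 13.05 and 12.39 after corn oil, 13.32, 12.71 and 12.68 in MDA livers and 13.91, 13.68 and 14.23 after ethanol. APAP livers were the lowest. The difference of 1.63 ± 0.412 lost its call without any 1 of 8 samples (corn oil 1 and 2, APAP 1 and 2, ethanol 1 and 2, MDA 1 and 2), at 1.39 to 1.72. The mean level of the 10 erythroid markers was 8.44 to 8.54 in APAP livers, 8.75 to 9.05 after corn oil, 9.02 to 9.09 in MDA livers and 9.05 to 9.38 after ethanol. The share of blood in the samples and its part in these values were not tested.

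Some called differences joined effects of opposite sign that were not called on their own. Sqle, the squalene epoxidase of cholesterol synthesis, measured 9.40, 9.54 and 9.24 in APAP livers and 10.35, 10.33 and 9.97 after corn oil, against 11.54, 11.48 and 11.20 in MDA livers and 11.13, 11.36 and 10.49 after ethanol. APAP livers were the lowest, and ethanol livers were above corn oil livers. The effects of -0.83 ± 0.125 and 0.41 ± 0.209 were not called, and the difference of 1.24 ± 0.27 was (limma adjusted p = 0.0181). Of 20 cholesterol genes 3 were higher and 0 lower, with a median of 0.24. Apoa1, the main protein of high density lipoprotein, had an APAP effect of -1.04 ± 0.162 and an MDA effect of 0.75 ± 0.251, with a difference of 1.79 ± 0.335 (limma adjusted p = 0.00883).

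Only 1 gene was called in opposite directions by the separate tests. Ptpdc1, a protein tyrosine phosphatase, measured 9, 9.08 and 9.20 in APAP livers and 8.56, 8.34 and 8.48 after corn oil, and 7.75, 7.96 and 8.25 in MDA livers and 8.83, 8.43 and 9.02 after ethanol. APAP livers lay above and MDA livers below their vehicles, and the difference was -1.41 ± 0.212 (limma adjusted p = 0.00268). The steroid hydroxylase Cyp17a1 fell by 2.79 on the log2 scale after MDA and fell by 2.49 after APAP, and the interval of its difference was -1.37 to 0.76.

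The baseline of each effect was a different vehicle. Ethanol livers compared to corn oil livers had 0 called probe sets by limma and 0 by the methods' t-test with adjustment, while 2235 of 31042 had an unadjusted limma p under 0.05. Of the 994 called genes, 33 had vehicle means more than 1.5-fold apart and 25 had a vehicle gap larger than the gap between the treated livers. Gsta3, Asns, Pir and Me1 were among these 25, with vehicle gaps of 1.27, 0.58, 0.78 and 0.46 and treated gaps of -0.65, -0.52, -0.27 and -0.42. The treated means of all 994 genes differed in the direction of the difference of effects. Scd, the stearoyl-CoA desaturase of fatty acid synthesis, measured 12.34, 12.23 and 11.76 in MDA livers, 13.72, 13.06 and 13.41 after ethanol, 11.85, 12.52 and 12.49 in APAP livers and 12.10, 12.20 and 11.73 after corn oil. Ethanol livers stood above the other 3 groups, which overlapped, and the called difference of -1.56 ± 0.309 (limma adjusted p = 0.0117) came with a vehicle gap of 1.39 and a treated gap of -0.18. Vehicle and study cannot be told apart in this gap.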

How the data were processed

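Labelled RNA of 12 livers (3 each of MDA, 35% ethanol, APAP and corn oil at 2 ml/kg) had been hybridised singly to Affymetrix rat genome arrays. The authors deposited log2 values after robust multichip averaging, and nothing was added to them. Of 31099 probe sets, 57 Affymetrix controls were left out, 20826 of the 31042 tested carried 1 gene, 436 several and 9780 no gene name here. The probe sets with 1 gene were matched by identifier to a RefSeq name table (20758 matched, 68 kept the platform name). Each gene was read from 1 probe set, the brightest on average across the 12 samples of those that name no other gene. Files held 0 missing values and 0 unused sample columns.

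The difference was the contrast (MDA minus ethanol) minus (APAP minus corn oil) in limma 3.58.1 under R 4.3.3, fitted to the 12 samples with empirical Bayes moderation. Each effect was also fitted to its own 6 samples. Tests were two-sided with Benjamini-Hochberg adjustment over 31042 probe sets, called at an adjusted p under 0.05 and a fold change over 1.5. Errors are standard errors of log2 differences and intervals are 95%. Scripts were tested on simulated data. With 3 samples a group and 1 array per rat, p-values set a difference against the spread within groups. That spread holds variation between rats and between arrays together.

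Named genes were drawn from the 12 largest called differences each way and up to 15 genes called in APAP livers. They were also drawn from genes called in both effects in the same (up to 8) or opposite directions (up to 10). In each of 34 gene lists, up to 6 called members and the first 3 as listed were eligible. Not every gene of these sets is named, and some list members from outside them, all uncalled but Cd14, are named beside a count. The members and lists were chosen with earlier results of these data known, so counts in lists are descriptions without a test. Alternatives were quantile normalization, median centring, leaving out the dimmest 1 in 3 probe sets, a fit over all samples, an intensity trend with robust moderation, sample weights, the methods' t-test (equal variances, p under 0.01), another choice of probe set and leaving out each sample. Promoter sequences were RefSeq, GRCr8.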

Additional observations from a re-analysis of the deposited data

How the results depend on the processing

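No paired analysis was possible because each group consisted of its own rats, numbered in sample order. The count of probe sets with a called difference (1580) was 1486 to 1745 under quantile normalization, median centring, removal of dim probe sets, the fit over all samples, trend, weights and the unadjusted methods' t-test, and 648 with that t-test adjusted. Leaving out 1 sample gave 1167 to 1781. For MDA the adjusted t-test gave 372 in place of 2179, and leaving out 1 sample 1774 to 2324. For APAP, 65 became 125 in the fit over all samples, 100 in the fit over the 12 samples, 117 in the unadjusted and 1 in the adjusted t-test, and 24 to 81 without 1 sample. Ethanol against corn oil gave 43 in the unadjusted t-test and 0 to 1 without 1 sample. The mean of a gene's probe sets gave 1012 genes in place of 994. Of 94 called genes named here, 49 kept their call in every alternative and 0 reversed. Cd14 and Aldh18a1, named beside counts, were not among these 94. The median difference of the fatty acid synthesis list went from -0.09 to 0.01 under quantile normalization, and no other list of the 34 changed the sign of its median under quantile normalization or median centring. Of 31 lists with a called member, 6 had 0 in the adjusted t-test: hepatocyte transporters, ER stress and ATF4, cholesterol synthesis, circadian clock, lymphocytes and erythroid cells.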
